A study of Mus musculus with 24 samples.

Results

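The regions described here are the ATAC-seq peaks assigned to Bdnf, Ntf3, Ntrk2, Ntrk3 and Ngfr, the genes of 2 neurotrophins and of 3 neurotrophin receptors. Every peak of the deposited count table whose gene label was 1 of these 5 names was taken. This gave 190 of 147020 peaks: 10 for Bdnf, 13 for Ntf3, 68 for Ntrk2, 90 for Ntrk3 and 9 for Ngfr. All 190 held enough counts to be tested, among 146155 tested peaks. The label is the gene with the nearest annotated transcription start, so a peak can lie far from its gene or inside another one. Of these peaks, 141 lay in introns, 38 between genes, 7 at promoters, 2 in exons and 2 in 3' untranslated regions.

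ATAC-seq uses the Tn5 transposase to cut and tag DNA that is open rather than packed in nucleosomes, so that the reads in a peak measure how accessible that DNA was. Neuronal nuclei from the striatum of 24 C57BL/6 mice aged 12 months were used, collected by sorting for NeuN, a protein of most neuronal nuclei, with 50000 nuclei per library. Each genotype had 3 females and 3 males. Q140 Msh3-/- animals were homozygous for the loss of Msh3 and carried 1 Q140 allele, Q140 animals carried 1 Q140 allele, Msh3-/- animals lacked Msh3, and WT animals were wild type. The labels write these genotypes as Msh3-/- X Het (Q140) KI, Het (Q140) KI, Msh3-/- and Wild type. Q140 is a knock-in of an expanded CAG repeat into Htt, the mouse huntingtin gene, carried in the germline. Msh3 encodes a DNA mismatch repair protein that is needed for such repeats to grow in somatic cells. The repeat length of each animal is not given in the sources used here.

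BDNF and NT-3, the products of Bdnf and Ntf3, are secreted proteins that keep neurons alive and shape their synapses. They act through the tyrosine kinase receptors TrkB (Ntrk2) and TrkC (Ntrk3), while p75 (Ngfr) binds all neurotrophins and can signal by itself or beside a Trk receptor. Striatal projection neurons express TrkB and depend on BDNF that cortical and other afferent neurons make and ship along their axons, and huntingtin is known to take part in both the transcription of Bdnf and the transport of its vesicles. The comparisons ask what the Q140 allele does to accessibility at these genes and what changes when Msh3 is missing.

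The 250 bases before each of 4 annotated starts are printed here from the RefSeq promoter table of build GRCm38.p6. They run 5′ to 3′ along the gene's strand, and whether they bear on accessibility was not tested. The first Bdnf window, chr2:109676782-109677031 on the plus strand, precedes the start that lies closest upstream of the Bdnf peak that changed. It overlaps no Bdnf peak. The second, chr2:109692186-109692435 on the plus strand, shares 180 bases with the Bdnf promoter peak of highest level in WT. The windows of Ngfr (chr11:95587699-95587948, minus strand) and Ntrk2 (chr13:58806319-58806568, plus strand) lie wholly inside promoter peaks. Capitals mark the SP motif GGGCGG and the CRE core TGACG on either strand.
Bdnf, start before the changed peak: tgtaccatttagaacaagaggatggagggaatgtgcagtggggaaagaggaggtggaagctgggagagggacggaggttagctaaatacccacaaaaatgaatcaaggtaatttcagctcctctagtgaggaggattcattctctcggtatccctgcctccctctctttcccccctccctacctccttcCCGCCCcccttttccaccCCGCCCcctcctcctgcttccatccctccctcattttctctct
Bdnf, start at the promoter peak: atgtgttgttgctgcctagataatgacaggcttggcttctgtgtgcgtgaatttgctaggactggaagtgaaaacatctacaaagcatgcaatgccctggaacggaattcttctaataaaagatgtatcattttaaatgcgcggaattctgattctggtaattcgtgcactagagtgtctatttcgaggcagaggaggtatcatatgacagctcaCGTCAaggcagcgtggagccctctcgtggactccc
Ngfr: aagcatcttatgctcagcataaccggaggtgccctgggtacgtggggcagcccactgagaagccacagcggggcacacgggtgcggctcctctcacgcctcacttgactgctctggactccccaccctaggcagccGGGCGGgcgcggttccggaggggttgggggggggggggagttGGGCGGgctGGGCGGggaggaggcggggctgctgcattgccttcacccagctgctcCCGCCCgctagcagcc
Ntrk2: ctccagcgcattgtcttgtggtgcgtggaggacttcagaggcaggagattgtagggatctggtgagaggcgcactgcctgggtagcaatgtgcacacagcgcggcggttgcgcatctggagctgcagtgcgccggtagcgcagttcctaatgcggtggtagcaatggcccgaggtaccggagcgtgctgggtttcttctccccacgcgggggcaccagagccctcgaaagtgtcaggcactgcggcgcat
The first Bdnf window held 2 SP matches, the Ngfr window 4 and the other two none. The CRE core, the first letters of the element bound by CREB, was found once in the second Bdnf window and in none of the other three. Neither the full CRE, TGACG followed by TCA, nor the NFI motif was in any of the 4 windows, while the AP-1 motif TGANTCA was in the first Bdnf window alone. Of 32851 such windows over all genes, 32.7% held the SP motif, 17.8% the CRE core, 1.55% the full CRE, 6.75% the AP-1 motif, 66.2% the E-box CANNTG and 0.0365% the NFI motif. Every full CRE also counts as a core, and a match shows only that the letters are there.

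Total counts in peaks ranged from 4372251 to 11736557 per library. Peaks inside Msh3 were more open where the gene was targeted: 25 of 25 had a positive fold change in Msh3-/- against WT and 24 of 25 in Q140 Msh3-/- against Q140, at medians of 0.76 and 0.77 on the log2 scale, with 4 and 9 past the threshold. The Msh3 promoter peak itself did not pass (0.01 ± 0.10 in Msh3-/- against WT, edgeR's quasi-likelihood test, adjusted p = 1), and which part of the gene the allele removes is not given in the sources used here. Ntrk2 lies on the same chromosome as Msh3, with 33.1 Mb between them. The library Q140 Msh3-/- M1 stood apart, with 12.7% of its counts in its 10 largest peaks against 2.52% to 6.82% in the other libraries. Q140 F2 had stood apart in an earlier analysis of these data, but by this share, at 4.35%, it lay within the range of the others. Promoters of striatal projection neuron markers, such as Ppp1r1b and Drd1, summed to 256.5 to 331.5 CPM, counts scaled to the size of each library, in Q140 and 280.0 to 388.2 in WT. Astrocyte markers, a cell type that also expresses Ntrk2, summed to 12.2 to 16.2 CPM in Q140 and 10.6 to 15.9 in WT over the 2 of 7 with a promoter peak, and Gfap, Aqp4, Slc1a2, Slc1a3 and Gja1 had none. No marker promoter of any of 9 cell types passed the threshold in Q140 against WT. In pools of sorted nuclei, fewer nuclei with an open peak and less accessibility per nucleus cannot be told apart.

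In Q140 against WT, 19 of the 190 peaks (10%) passed the threshold, an adjusted p under 0.05 over all tested peaks, against 10.3% of all tested peaks. The Bdnf locus gained accessibility at 1 peak and the Ntf3 locus lost it at 1 peak. Ntrk2 had 2 higher and 2 lower peaks, Ntrk3 had 3 higher and 10 lower, and Ngfr had none past the threshold. In total 6 peaks (3.16%) were higher and 13 (6.84%) lower, beside 4.2% higher and 6.11% lower among all tested peaks. None of the 7 promoter peaks passed, in a class where 3.33% of all tested peaks did. Of the 19, 15 were among the 141 intronic peaks and 4 among the 38 between genes. Over all tested peaks, 10.4% of intronic and 12.6% of intergenic peaks passed. Scaling by total counts in place of TMM gave 10 higher and 12 lower peaks. Without the library WT F3, 12 peaks passed, and without Q140 F2 and Q140 Msh3-/- M1 together, 15 did. The p-values measure the spread between these 24 libraries.

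At Bdnf, 1 intronic peak was more accessible in Q140 and the other 9 peaks did not pass the threshold. The peak (chromosome 2, 109677960 to 109678627, GRCm38 as for all positions) lies in intron 1 of the transcript NM_001285419, 1.26 kb past its start. Its accessibility was 4.96, 5.76 and 6.68 CPM (lowest, median and highest library) in Q140, and 2.49, 2.74 and 3.29 CPM in WT. Every Q140 library lay above every WT library. The mean was 5.82 ± 0.68 CPM in Q140 and 2.82 ± 0.30 CPM in WT (SD, n = 6 each), a 2.06-fold difference. On the log2 scale this was 1.04 ± 0.16 (SE, edgeR's quasi-likelihood test, adjusted p = 1.58e-05). The difference was 1.12 ± 0.24 in females and 0.96 ± 0.24 in males, and the sexes did not differ past the threshold (0.17 ± 0.34, adjusted p = 1).

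The same peak was lower in Q140 animals without Msh3 than in Q140 animals with it. This comparison shares its Q140 libraries with the one that singled out the peak. Its level was 2.39, 3.75 and 4.52 CPM in Q140 Msh3-/-, so that no library of that genotype reached the lowest Q140 library, while the range overlapped that of WT. Against Q140 the log2 fold change was -0.75 ± 0.16 (edgeR's quasi-likelihood test, adjusted p = 0.0123). It was the only 1 of the 190 peaks past the threshold in that comparison (0.526%), in which 0.529% of all tested peaks passed. Without the library Q140 Msh3-/- F2 the value was -0.64 (edgeR, adjusted p = 0.0699), and without Q140 Msh3-/- M1, the library that stood apart, -0.67 (edgeR, adjusted p = 0.0545). Leaving out Q140 F2 and Q140 Msh3-/- M1 together gave -0.63 (edgeR, adjusted p = 0.135). Msh3-/- libraries held 2.60, 3.53 and 4.21 CPM, which overlapped WT, and the difference of 0.28 ± 0.18 did not pass (edgeR, adjusted p = 1). The interaction, which subtracts the Q140 against WT change from the Q140 Msh3-/- against Msh3-/- change, was -1.02 ± 0.24 (95% interval -1.51 to -0.54), which did not pass the adjusted threshold either (edgeR, adjusted p = 0.116). Q140 Msh3-/- against Msh3-/- gave 0.02 ± 0.17 (edgeR, adjusted p = 0.998), with a 95% interval from -0.33 to 0.37.

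None of the 4 promoter peaks of Bdnf passed the threshold in Q140 against WT. The one at the start shown in the second Bdnf window held 3.90, 5.34 and 7.55 CPM in Q140 and 3.81, 4.32 and 5.52 CPM in WT. The ranges overlapped, and the log2 fold change of 0.32 ± 0.17 did not pass (edgeR, adjusted p = 0.266). The other 3 promoter peaks had log2 fold changes of 0.23 ± 0.32 and 0.21 ± 0.19 at 0.988 and 0.499 kb before the start of NM_007540, and of -0.02 ± 0.20 at 0.184 kb past the start of NM_001285417 (edgeR, adjusted p 0.609 to 0.975). These intervals do not show that the promoters were alike: the widest ran from -0.41 to 0.88. Per kilobase, the promoter peak of the second window was the most open Bdnf peak in WT, at 11.4 CPM per kb, and the intronic peak that gained was the least open, at 4.23 CPM per kb. The peak 20.9 kb past the nearest start, between genes, had an unadjusted p of 0.0118 and a log2 fold change of -0.51, which did not pass (edgeR, adjusted p = 0.0902).

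**Figure D1:**
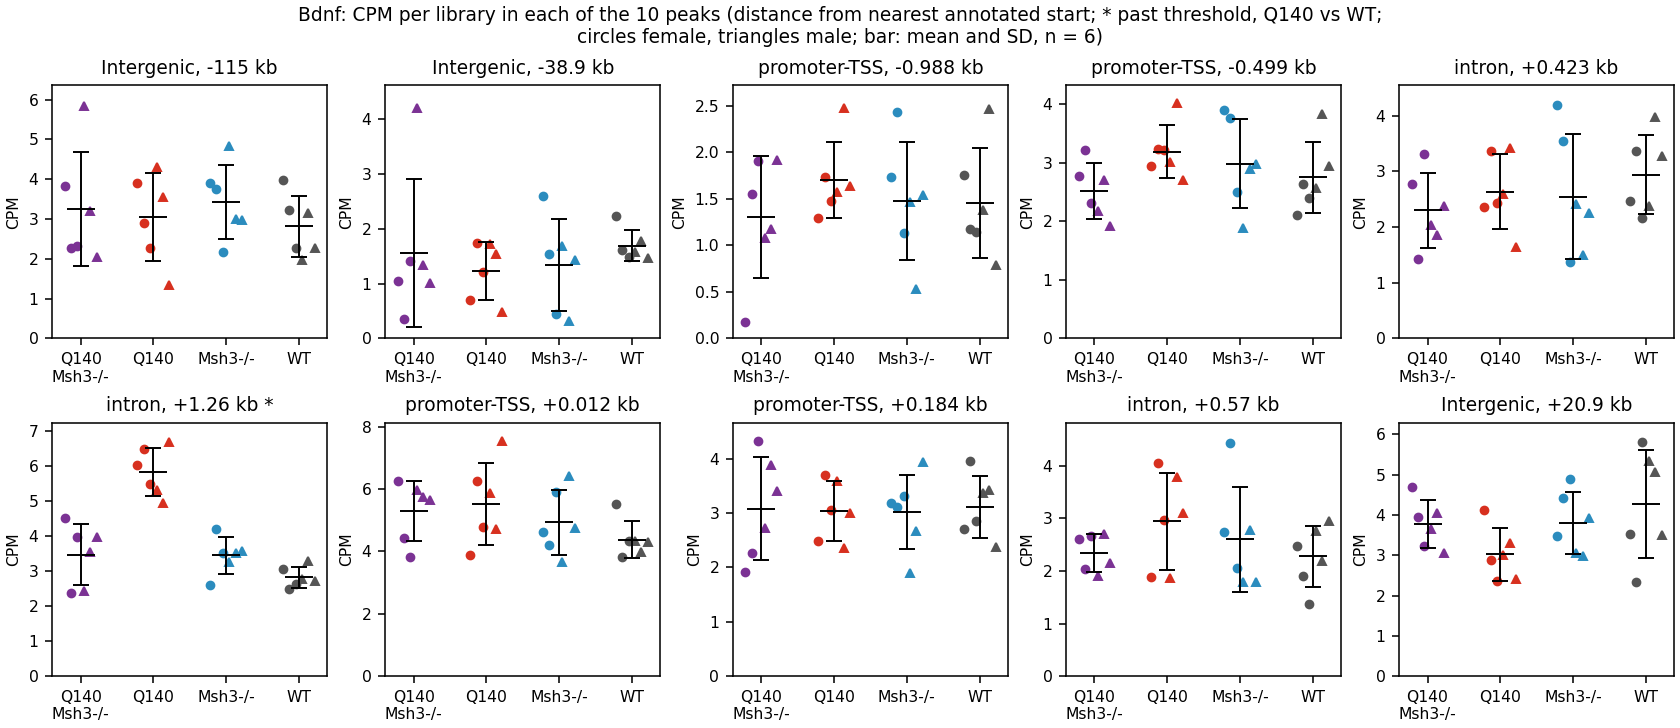
CPM per library (y axis) in each of the 10 Bdnf peaks, by genotype (x axis), with circles for females, triangles for males and bars for the mean and SD of 6 libraries. In the intronic panel marked with a star, the 6 Q140 libraries sit between 4.96 and 6.68 CPM, above the highest WT library at 3.29 CPM; in the other 9 panels the Q140 and WT ranges overlap.

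Ntf3 lost accessibility at 1 distal peak. This intergenic peak (chromosome 6, 126057698 to 126058093) lies 107 kb from the start, on the downstream side. It held 1.94, 2.10 and 2.44 CPM in Q140 and 3.64, 4.45 and 5.73 CPM in WT. The ranges did not overlap, and the mean was 2.14 ± 0.18 CPM in Q140 and 4.52 ± 0.80 CPM in WT (SD, n = 6 each). The log2 fold change was -1.05 ± 0.19 (edgeR's quasi-likelihood test, adjusted p = 1.13e-04), the largest decrease among the 190 peaks.

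The Ntf3 peak was also lower than in WT in Q140 Msh3-/- animals, where it held 1.56, 2.43 and 3.11 CPM. These libraries overlapped Q140 and lay below every WT library. Against WT the log2 fold change was -0.95 ± 0.19 (edgeR, adjusted p = 0.00959), the only member past the threshold there (0.526%, beside 0.525% of all tested peaks). Without Q140 Msh3-/- M3 it was -0.86 (edgeR, adjusted p = 0.0614). These comparisons share libraries; against Q140, Q140 Msh3-/- differed by 0.11 ± 0.21 (edgeR, adjusted p = 0.949), with a 95% interval from -0.31 to 0.52. Msh3-/- libraries held 2.57, 4.11 and 5.25 CPM, and Q140 Msh3-/- against Msh3-/- gave -0.85 ± 0.19, just short of the threshold (edgeR, adjusted p = 0.0516). It passed without Msh3-/- F2, Msh3-/- M2 or Q140 Msh3-/- F2 (edgeR, adjusted p 0.0366, 0.0295 and 0.0403).

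No peak within Ntf3 passed in Q140 against WT, and none of its 13 peaks was annotated as a promoter. The Ntf3 peak of highest level in WT, in intron 1 of NM_008742 and 22.5 kb past its start, held 4.74, 5.43 and 6.88 CPM in Q140 and 4.64, 5.21 and 7.70 CPM in WT. These overlapped throughout, and the log2 fold change was 0.00 ± 0.13 (edgeR, adjusted p = 1). A pair of the 13 peaks lay inside Ano2, a neighbouring gene for a chloride channel, and neither passed.

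Ntrk2, the gene of TrkB, had 4 of its 68 peaks past the threshold in Q140 against WT (5.88%, beside 10.3% of all tested peaks). These distal and intronic peaks changed in both directions. The largest decrease was between genes, 355 kb from the start (chromosome 13, 59162769 to 59163325). That peak held 3.10, 4.09 and 5.32 CPM in Q140 and 5.86, 7.73 and 10.8 CPM in WT, with no overlap. Its log2 fold change was -0.915 ± 0.17 (edgeR's quasi-likelihood test, adjusted p = 1.79e-04). A second decrease lay in intron 13 of 17 of NM_001025074, 229 kb past the start (59036117 to 59036665). There Q140 libraries held 4.73, 5.71 and 6.39 CPM, below every WT library at 7.77, 9.29 and 11.3 CPM, a log2 fold change of -0.78 ± 0.14 (edgeR, adjusted p = 1.90e-04).

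The gains at Ntrk2 were smaller. An intergenic peak 338 kb from the start (59145559 to 59146451) held 12.2, 16.1 and 18.8 CPM in Q140 and 6.71, 11.1 and 13.02 CPM in WT, which overlapped, at a log2 fold change of 0.52 ± 0.14 (edgeR, adjusted p = 0.00913). A peak in intron 12, 149 kb past the start (58956245 to 58956767), held 4.01, 4.73 and 6.38 CPM in Q140 and 2.85, 3.39 and 4.19 CPM in WT, also with overlap, at 0.51 ± 0.16 (edgeR, adjusted p = 0.0380). That last call was lost in 7 of the 24 fits that each left out 1 library, with an adjusted p of up to 0.117 without Q140 M2. It was also lost with DESeq2 (adjusted p = 0.0585), with no filter on low counts (edgeR, adjusted p = 0.0506) and without Q140 F2 and Q140 Msh3-/- M1 (edgeR, adjusted p = 0.0625). The other 3 Ntrk2 peaks stayed past the threshold in all 24.

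In Q140 Msh3-/- against Q140, none of the 68 Ntrk2 peaks passed. The 2 peaks that were lower in Q140 had log2 fold changes there of 0.44 ± 0.18 (355 kb) and 0.39 ± 0.15 (229 kb), and those that were higher had -0.18 ± 0.13 (338 kb) and -0.31 ± 0.16 (149 kb). Both comparisons use the same Q140 libraries. The levels in Q140 Msh3-/- were 3.40, 6.54 and 7.59 CPM at the 355 kb peak, overlapping both Q140 and WT, and 6.45, 6.96 and 9.44 CPM at the 229 kb peak, above every Q140 library.

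The Ntrk2 promoter peak was the most counted of all 190 and did not differ past the threshold. It spans 2575 bases around the start (58806293 to 58808867) and held 56.7, 74.1 and 89.9 CPM in Q140 and 58.0, 82.4 and 96.0 CPM in WT. The ranges overlapped, at a log2 fold change of -0.12 ± 0.13 (95% interval -0.38 to 0.14). It had a mean of 638 counts per library, against a median of 25.2 counts per library over the 68 Ntrk2 peaks.

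**Figure D2:**
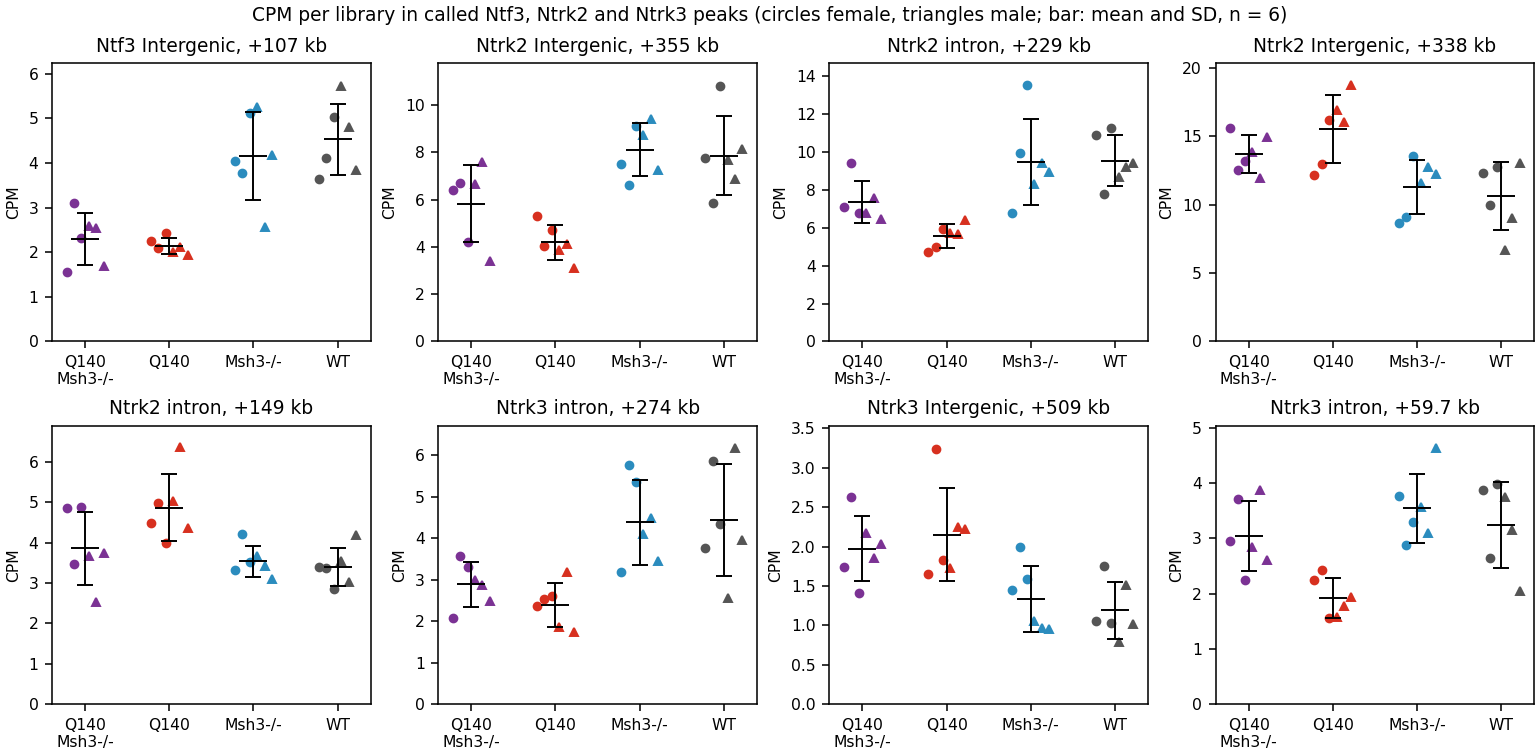
CPM per library (y axis) by genotype (x axis) for the Ntf3 peak, the 4 Ntrk2 peaks and the 3 Ntrk3 peaks with the largest fold changes among those past the threshold in Q140 against WT, with the mean and SD of 6 libraries. The Ntf3 peak and both lower Ntrk2 peaks show Q140 libraries wholly below WT, and the Ntf3 peak is as low in Q140 Msh3-/-, with a highest library of 3.11 CPM.

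Ntrk3, the gene of TrkC, had the most peaks and the most changed peaks, the majority of them lower and inside the gene. Of its 90 peaks, 13 (14.4%) passed in Q140 against WT, 10 lower and 3 higher, beside 10.3% of all tested peaks, 6.11% lower and 4.2% higher. Over all 90 peaks the median log2 fold change was -0.18, with 63 negative and 27 positive, beside a median of -0.01 over all tested peaks. The 64 peaks inside Ntrk3 had a median of -0.19, 49 of them negative, with 9 lower and 2 higher past the threshold. The 20 intergenic peaks had a median of 0.07, 12 of them positive, with 1 higher. The remaining 6 lay inside the neighbouring noncoding gene E430016F16Rik upstream of Ntrk3, all negative, with 1 lower.

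The most accessible Ntrk3 peak was among those that fell. It lies in intron 12 of 16 of NM_008746, 280 kb past the start (chromosome 7, 78297063 to 78298305), and held 16.2, 20.5 and 23.7 CPM in Q140 and 25.0, 30.5 and 38.3 CPM in WT. All Q140 libraries were below all WT libraries, at a log2 fold change of -0.59 ± 0.15 (edgeR's quasi-likelihood test, adjusted p = 0.00574). Nearby, 274 kb past the start (78303680 to 78303947), lay the largest decrease, with 1.74, 2.45 and 3.19 CPM in Q140 and 2.57, 4.15 and 6.17 CPM in WT. Those ranges overlapped, and the log2 fold change was -0.90 ± 0.20 (edgeR, adjusted p = 0.00125). Another peak of the same stretch, 272 kb past the start (78305389 to 78306337), held 9.57, 14.4 and 18.5 CPM in Q140 and 15.9, 22.3 and 30.6 CPM in WT, with overlap, at -0.65 ± 0.14 (edgeR, adjusted p = 0.00183).

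The other lower peaks inside Ntrk3 lay at 219, 208, 207, 178, 115 and 59.7 kb past the start, with log2 fold changes from -0.75 ± 0.20 at 59.7 kb to -0.41 ± 0.14 at 115 kb (edgeR, adjusted p 0.0037 to 0.0408). At 59.7 kb (78517935 to 78518261), in intron 1 of NM_182809, the peak held 1.57, 1.85 and 2.43 CPM in Q140 and 2.04, 3.45 and 3.99 CPM in WT, with overlap. Without WT F3 its adjusted p was 0.0549. The lower peak inside E430016F16Rik, 19.5 kb before the Ntrk3 start (78597082 to 78597681), changed by -0.41 ± 0.13 (edgeR, adjusted p = 0.0293).

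Gains at Ntrk3 were at 509 kb, 341 kb and 84.3 kb past the start. The 509 kb peak (78068987 to 78069201), between genes, held 1.65, 2.03 and 3.24 CPM in Q140 and 0.790, 1.04 and 1.76 CPM in WT, with overlap, at a log2 fold change of 0.85 ± 0.26 (edgeR, adjusted p = 0.0261). The other two gained 0.54 ± 0.17 and 0.51 ± 0.14 in introns (edgeR, adjusted p 0.0308 and 0.0143). Of the 13 changed Ntrk3 peaks, 5 stayed past the threshold whichever library was left out, and the peak at 115 kb was the least stable, past it in 8 of 24 such fits, with an adjusted p of 0.25 without WT F3.

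**Figure D3:**
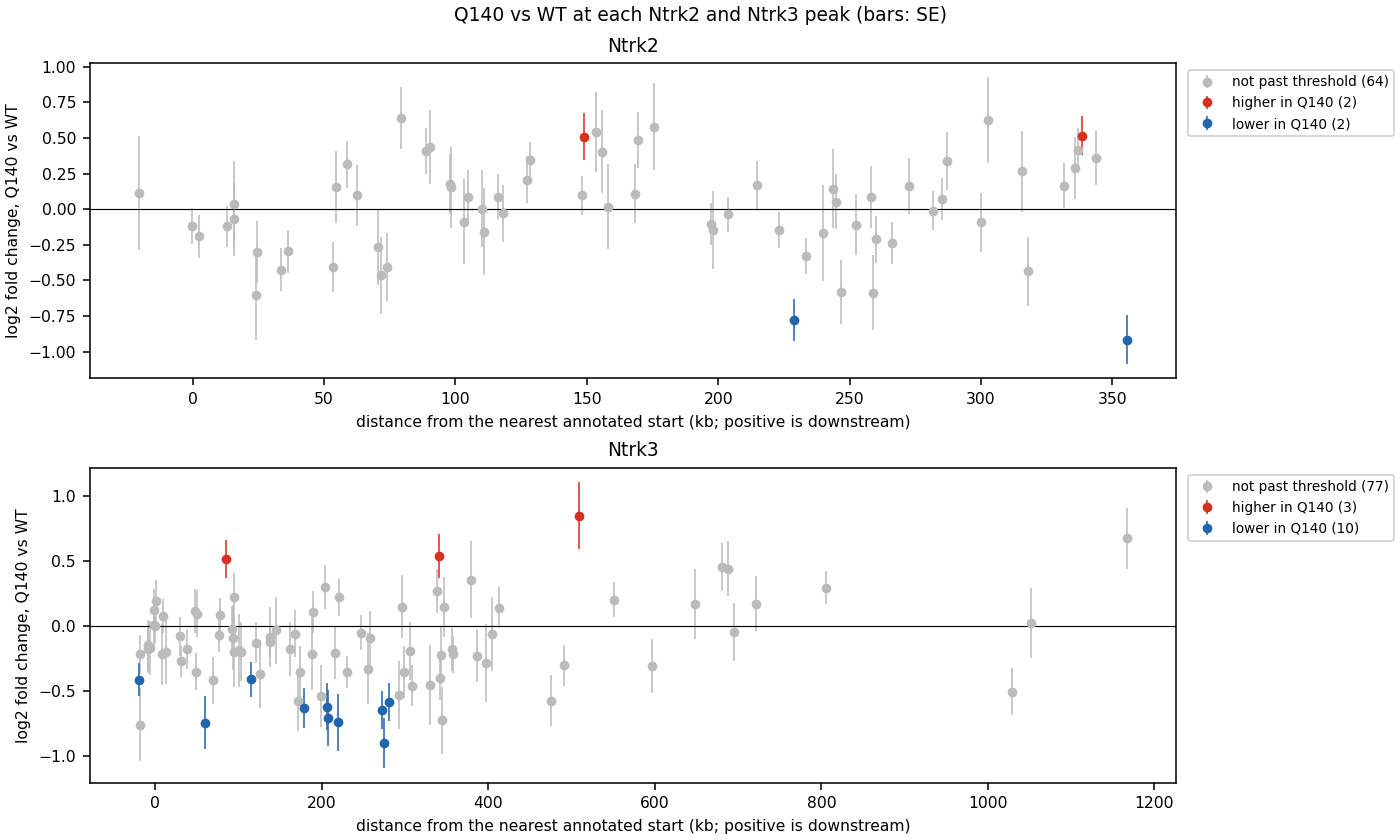
Log2 fold change of Q140 against WT (y axis, bars for the SE) at each of the 68 Ntrk2 peaks (top) and 90 Ntrk3 peaks (bottom), by distance from the nearest annotated start in kb (x axis). The 10 lower Ntrk3 peaks, in blue, lie between 19.5 kb before and 280 kb past the start, and all 3 higher ones, in red, lie from 84.3 to 509 kb past it.

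Summed over all peaks, Ntrk3 was the 1 member gene past the threshold in Q140 against WT, where 12.9% of 20851 genes passed. Its 90 peaks together held 429.7, 452.8 and 472.1 CPM in Q140 and 454.0, 496.6 and 539.3 CPM in WT, with overlap. The log2 fold change was -0.14 ± 0.05 (edgeR's quasi-likelihood test, adjusted p = 0.0427). With scaling by total counts it was -0.11 and did not pass (edgeR, adjusted p = 0.227). Of the 393 peaks of 12 striatal projection neuron marker genes, 53 were lower and 8 higher in Q140, with a median of -0.15. Over all tested peaks, 6.11% were lower and 4.2% higher. Medians of the other marker types ran from -0.13 (astrocytes, 12 lower and 4 higher of 131 peaks) to 0.13 (oligodendrocyte precursors). The part of any of these in the Ntrk3 result was not tested. The sums of the other 4 genes did not pass, at 0.17 ± 0.10 for Bdnf, -0.09 ± 0.08 for Ntf3, -0.04 ± 0.05 for Ntrk2 and -0.10 ± 0.07 for Ngfr (edgeR, adjusted p 0.28 to 0.713).

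The Ntrk3 promoter peak (78577868 to 78578595) held 7.21, 8.08 and 9.19 CPM in Q140 and 6.01, 8.81 and 9.40 CPM in WT. The ranges overlapped, and the log2 fold change was 0.00 ± 0.13, with a 95% interval from -0.27 to 0.27.

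Without Msh3, none of the 90 Ntrk3 peaks passed against Q140, and 13 of them (14.4%) had an unadjusted p under 0.05, beside 9.5% of all tested peaks. At the 59.7 kb peak, Q140 Msh3-/- libraries held 2.24, 2.90 and 3.88 CPM, which overlapped both Q140 and WT, and the log2 fold change against Q140 was 0.63 ± 0.21 (edgeR, adjusted p = 0.175). At the 280 kb peak they held 19.0, 24.1 and 30.4 CPM, with 0.26 ± 0.15 against Q140 and -0.33 ± 0.15 against WT, neither past the threshold (edgeR, adjusted p 0.633 and 0.422). The sum over Ntrk3 differed by 0.08 ± 0.05 from Q140 and by -0.06 ± 0.05 from WT (edgeR, adjusted p 0.549 and 0.771).

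Ngfr, the gene of p75, had 9 peaks and none past the threshold in any of the 6 comparisons with both sexes. By edgeR, 0 to 2 of the 9 had an unadjusted p under 0.05 in each, with 1 in Q140 against WT. Its promoter peak (chromosome 11, 95587224 to 95587982), which covers the GGGCGG-rich window printed above, held 6.49, 7.17 and 8.45 CPM in Q140 and 6.45, 8.30 and 9.51 CPM in WT, with overlap, at -0.17 ± 0.13 (edgeR, adjusted p = 0.538). The peak of highest level in WT, 22.9 kb before the start (95610142 to 95611120), held 4.74, 7.26 and 7.87 CPM in Q140 and 7.18, 8.52 and 10.01 CPM in WT. At -0.34 ± 0.14 it did not pass (edgeR, adjusted p = 0.122), and the change was 0.00 ± 0.19 in females and -0.72 ± 0.19 in males. The change in females minus that in males was 0.715 ± 0.27 (edgeR, adjusted p = 1). Fitted in males only, with 3 libraries per genotype, the peak passed (-0.72, edgeR, adjusted p = 0.0153). In that fit 11 of the 190 member peaks and 7768 of all tested peaks passed, and the tested sex difference at the peak did not pass. For Q140 Msh3-/- against Msh3-/- the sum over Ngfr was -0.24 ± 0.08 (edgeR, adjusted p = 0.268), and the levels were 29.2, 32.3 and 36.6 CPM in Q140 Msh3-/- and 35.5, 37.9 and 43.4 CPM in Msh3-/-.

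**Figure D4:**
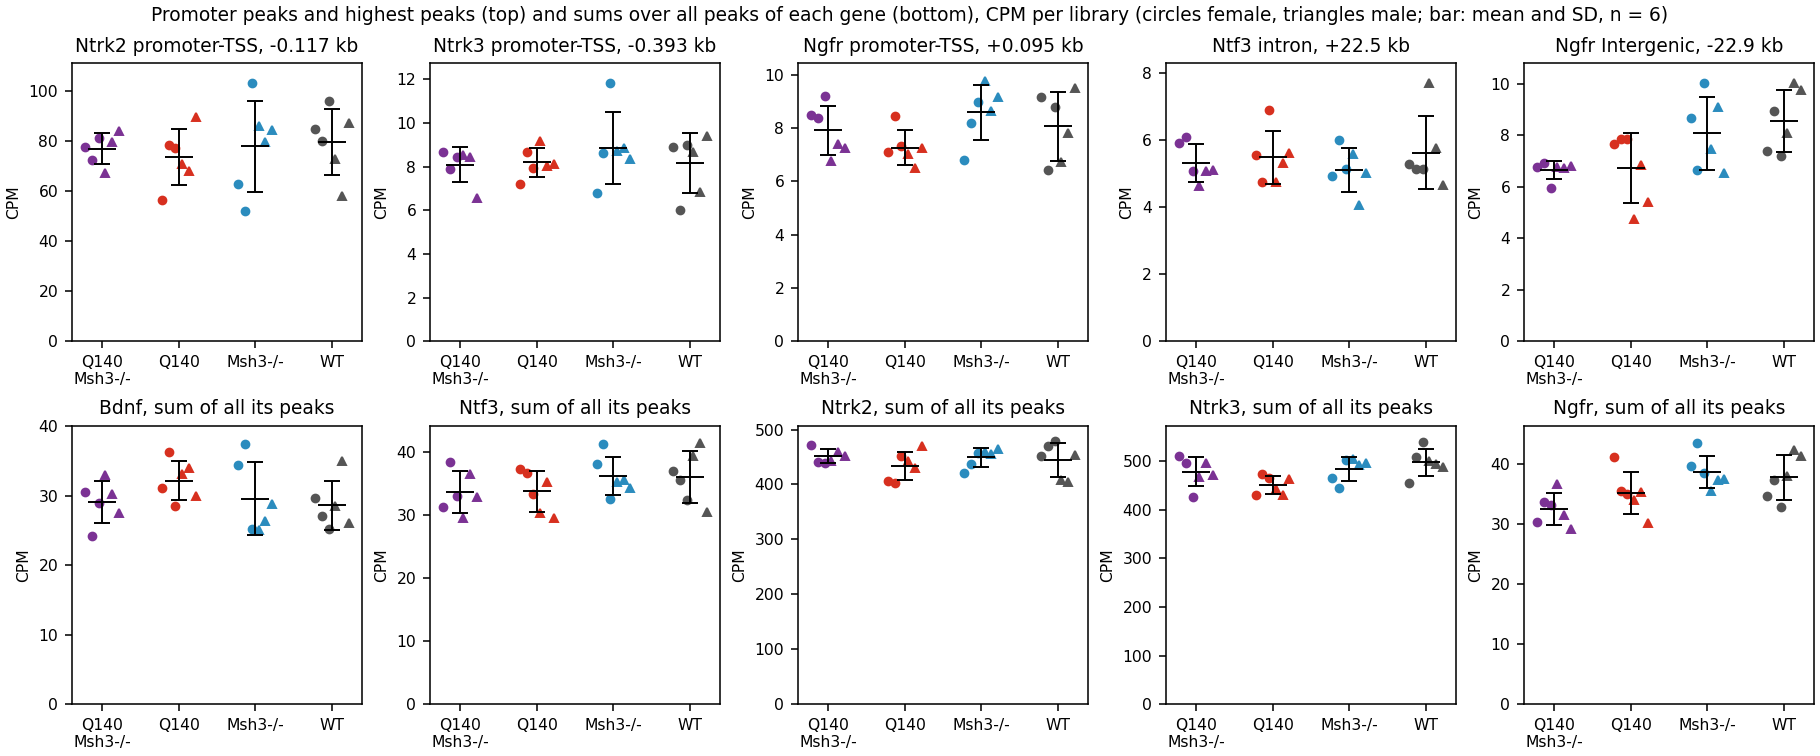
CPM per library (y axis) by genotype (x axis) at the promoter peaks of Ntrk2, Ntrk3 and Ngfr and the highest peaks of Ntf3 and Ngfr in WT (top), and summed over all peaks of each of the 5 genes (bottom), with the mean and SD of 6 libraries. The Q140 and WT ranges overlap in every panel. At the Ngfr peak 22.9 kb before the start every Q140 Msh3-/- library, at 6.93 CPM or less, lies below every WT library. Q140 Msh3-/- against WT did not pass there (log2 fold change -0.37 ± 0.14, edgeR, adjusted p = 0.311). The Ntrk3 sum has the lowest Q140 library at 429.7 CPM and the highest WT library at 539.3 CPM.

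Summed over their peaks and divided by the length covered, Ntrk2 and Ntrk3 held more counts than the other 3 genes. Over all their peaks in WT, Ntrk2 held 13.55 CPM per kb and Ntrk3 11.42, followed by Ngfr at 8.45, Ntf3 at 7.06 and Bdnf at 6.76. In Q140 the order was Ntrk2 at 13.22, Ntrk3 at 10.35, Ngfr at 7.88, Bdnf at 7.60 and Ntf3 at 6.61. The Q140 Msh3-/- values were 13.75 for Ntrk2, 10.98 for Ntrk3, 7.26 for Ngfr, 6.87 for Bdnf and 6.58 for Ntf3, and in Msh3-/- 13.69, 11.11, 8.65, 6.99 and 7.08 for the same genes. Within the same library, Ntrk2 was above Ntrk3, Ntrk3 above Ngfr and Ngfr above Ntf3 in 6 of 6 WT libraries, while Ntf3 was above Bdnf in 4 of 6, so that these last neighbours did not differ beyond their spread. In Q140, Ngfr was above Bdnf in 2 of 6 libraries. Taken per peak, the WT medians were 9.48 CPM per kb for Ntrk3, 8.58 for Ntrk2, 8.41 for Ngfr, 6.99 for Ntf3 and 6.57 for Bdnf. Ntrk2 and Ntrk3 were in the opposite order there, and Ntrk2 was close to Ngfr. The Ntrk2 peaks reached 64.4 CPM per kb, against 24.5 for Ntrk3 and 11.7 for Ngfr.

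With wild-type Htt, no member peak passed the threshold when Msh3 was lost. By edgeR, 0 passed in Msh3-/- against WT, where 0.013% of all tested peaks did, and 2 of the 190 had an unadjusted p under 0.05, both at Ntrk3, beside 3.34% of all tested peaks. DESeq2 also called 0. Summed by gene, 0 of the 5 passed, beside 0.0192% of all genes. Between Q140 Msh3-/- and Msh3-/-, edgeR and DESeq2 each called 0 of the 190, where 0.116% of all tested peaks passed by edgeR. By edgeR 15 (7.89%) had an unadjusted p under 0.05, beside 7.68% of all tested peaks. The interaction called 0 by both tools as well, where 0.0226% of all tested peaks passed by edgeR, with 15 (7.89%) under 0.05 beside 7.32%. No gene sum of the 5 passed in Q140 Msh3-/- against Q140, against Msh3-/- or against WT, or in the interaction, where 0.643%, 0.0576%, 0.82% and 0.0719% of all genes did. Of these sums, Ngfr alone had an unadjusted p under 0.05, for Q140 Msh3-/- against Msh3-/- and against WT. The Q140 effect did not differ between females and males past the threshold at any of the 190 peaks by edgeR or by DESeq2, where 0% of all tested peaks passed. An unadjusted p under 0.05 was found by edgeR at 7 of the 190, beside 4806 of the 146155 tested peaks.

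**Figure D5:**
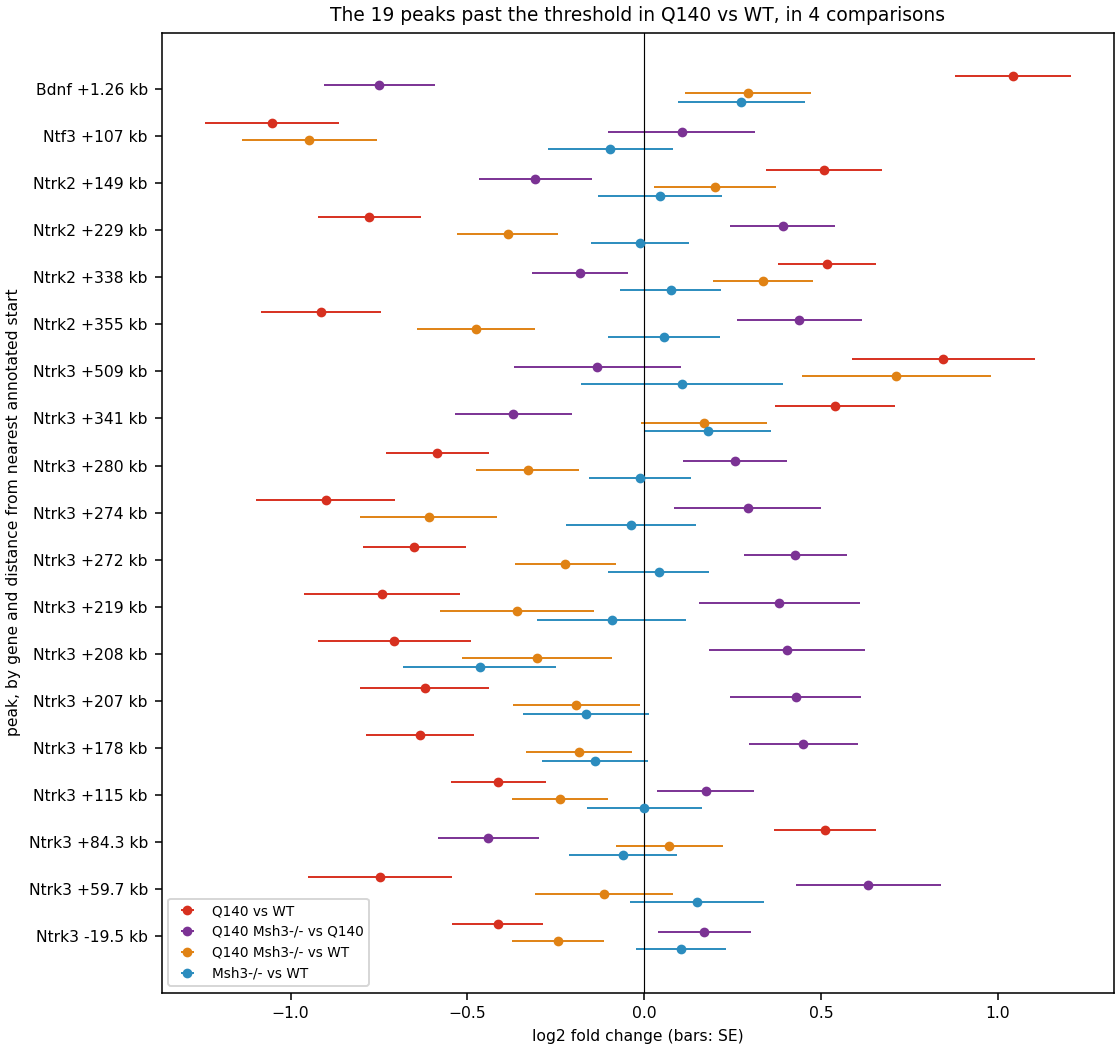
Log2 fold changes with their SE (x axis) of the 19 peaks past the threshold in Q140 against WT (rows, by gene and distance from the start), in Q140 against WT and in 3 further comparisons, which share libraries with it. The Bdnf peak is at 1.04 in Q140 against WT and at -0.75 in Q140 Msh3-/- against Q140, and the Ntf3 peak at -1.05 in Q140 against WT and -0.95 in Q140 Msh3-/- against WT.

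Genes that make, cleave, carry or answer to neurotrophins changed about as often as peaks at large. A list of 88 such genes outside the 5 members had 846 peaks at 84 genes, of which 43 were higher and 41 lower in Q140 against WT and 762 did not pass (9.93% past the threshold, beside 10.3% of all tested peaks), at a median log2 fold change of 0.01. The sortilin family, which sorts and binds proneurotrophins, had 9 higher and 10 lower of 160 peaks (11.9%). Sorcs1 held both directions, with 6.18 ± 0.95 CPM in Q140 and 2.86 ± 0.78 CPM in WT at its higher peak of smallest p, between genes, at 1.10 ± 0.16 (edgeR, adjusted p = 6.57e-06). Among convertases and release factors, 1 peak was higher and 2 lower of 76 (3.95%). The higher one lay 7.02 kb before the start of Furin, which cleaves proneurotrophins, at 0.76 ± 0.16 (edgeR, adjusted p = 9.48e-04).

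Trk adaptors and regulators had 21 higher and 11 lower of 236 peaks (13.6%). Over all tested peaks 10.3% passed, 4.2% higher and 6.11% lower. A promoter peak of Kidins220, a scaffold that binds Trk receptors, was lower, at 8.79 ± 0.95 CPM in Q140 and 15.6 ± 2.9 CPM in WT, a log2 fold change of -0.82 ± 0.13 (edgeR, adjusted p = 2.92e-05). Slitrk5, a co-receptor of TrkB, had distal peaks in both directions, at 1.31 ± 0.23 and -0.90 ± 0.18 (edgeR, adjusted p 6.1e-05 and 5.19e-04). Of 185 peaks of downstream kinases, 8 were higher and 10 lower (9.73%). A distal peak of Pik3r1, a regulatory subunit of PI3-kinase, held 8.41 ± 1.87 CPM in Q140 and 2.24 ± 0.23 CPM in WT, at 1.91 ± 0.18 (edgeR, adjusted p = 1e-09). It was lower in Q140 Msh3-/- than in Q140 (-0.63, edgeR, adjusted p = 0.0465). The partners of p75 had 2 lower of 65 peaks (3.08%), both at Lingo1, a member of the receptor complex that limits axon growth. Regulators of Bdnf transcription and transport had 4 higher and 6 lower of 116 peaks (8.62%).

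For the changed peak of smallest p of each gene, the peaks of other genes whose levels ran most alike over the 24 libraries were listed. Each r is among the largest over all tested peaks of other genes, and so is high by selection. Likeness was Pearson's r of log2 CPM and is a description, since the libraries share depth and genotype. The Bdnf intronic peak ran most like a peak assigned to Tafa5 (r = 0.894, and 0.748 with genotype means removed). For the Ntf3 peak the closest was assigned to Slc18a3 (0.920, and 0.787), for the 355 kb Ntrk2 peak to Plb1 (0.940, and 0.825), and for the 274 kb Ntrk3 peak to Rassf10 (0.866, and 0.735). Rassf10 lies on chromosome 7, as Ntrk3 does, and the closest peaks of the other genes lay on other chromosomes. Further down each list were peaks on the member's own chromosome, such as Gm5535 for Bdnf, Cpne9 for Ntf3 and Serpinb1b for Ntrk2.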

How the data were processed

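Per the labels' protocols, nuclei were tagmented with a Nextera kit, and BWA, SAMtools, Picard, MACS2 and featureCounts are named in the submitters' processing notes, without versions, with build GRCm38. The deposited table holds raw counts of reads per peak, per the file headers, for 147020 peaks over all 24 libraries, and 0 other per-sample columns. Totals of 4372251 to 11736557 counts, and a median of 19.5 (Ntf3) to 33.5 (Ngfr) counts per peak and library, set the precision. Peaks were filtered with filterByExpr (count minimum 10), scaled by TMM and tested with edgeR 4.0.16 (limma 3.58.1, R 4.3.3) with 1 coefficient per genotype and a sex term, over all 24 libraries, with Benjamini-Hochberg adjustment at 0.05. CPM and CPM per kb were computed here. The model was also run on counts simulated with its own fitted spread, which does not test whether that spread suits the data. DESeq2 1.42.0 was an alternative, and sensitivity to other settings is given in the closing section. Counts of all peaks of a gene were also summed and tested. Peaks with no gene symbol (281) were left out of the sums. None of the 60 pairs of libraries within a genotype was alike within sampling noise. Named peaks are those past the threshold in any comparison, all promoter peaks and the highest peak of each gene in WT; for other neurotrophin genes, up to 2 peaks in each direction per role, by smallest p. The members and lists were chosen with earlier results of these data known. Figures used Python 3.11.15, pandas 2.3.3 and matplotlib 3.10.9. Single results of some genes of the wider list are not reported here.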

Additional observations from a re-analysis of the deposited data

Results flagged for a closer look

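Of 132 groups of 6 libraries tested for 1 library far from the others (Dixon's test, gap over range), 5 were flagged, and chance flags about 1 in 20. At the Bdnf promoter peak 0.988 kb before the start, Q140 M2 held 2.48 CPM against 1.30 to 1.74 in the other Q140 libraries (ratio 0.629). At the Bdnf promoter peak 0.012 kb past the start, WT F1 held 5.52 CPM against 3.81 to 4.34 in the other WT libraries (ratio 0.687). At the Ntf3 peak 22.5 kb past the start, WT M1 held 7.70 CPM against 4.64 to 5.76 (ratio 0.635). At the Ntrk3 peak 509 kb past the start, Q140 F2 held 3.24 CPM against 1.65 to 2.24 (ratio 0.629), and without that library the difference of Q140 from WT did not pass (0.68, edgeR, adjusted p = 0.122). At the Ngfr peak 22.9 kb before the start, Q140 Msh3-/- F3 held 5.97 CPM against 6.75 to 6.93 (ratio 0.811).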

How the results depend on the processing

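In Q140 against WT, 19 member peaks passed, and the count was 1 in females only and 11 in males only. Over all tested peaks, 15066 passed in the main fit, 1378 in females only and 7768 in males only. With each library left out, 12 to 24 member peaks passed. Each sex has 3 libraries per genotype. In Q140 Msh3-/- against Q140 the 1 call was lost (0) without Q140 F2 and Q140 Msh3-/- M1, in females only and in males only, and ranged from 0 to 1 over libraries left out. In Q140 Msh3-/- against Msh3-/-, 1 peak (Ntf3) passed with no filter on low counts, with no sex term and with the replicate block, and 0 to 1 over libraries left out. In Q140 Msh3-/- against WT the call was lost (0) in females only and in males only, and ranged from 0 to 1. The Ntrk3 sum was -0.11 with scaling by total counts. The cause was not tested. The replicate block gave 19 peaks in Q140 against WT, but not the same ones: the Ntrk2 peak 149 kb past the start was lost (edgeR, adjusted p = 0.0501). Same-numbered libraries correlated from -0.438 to 0.448 (median 0.028, 11 of 36 pairs over 0.1). Differently numbered libraries correlated from -0.544 to 0.442 (median -0.025, 16 of 72 pairs over 0.1). The ranges overlapped, and these values do not settle whether the numbers pair the samples. Over 34 named results, 1072 of 1188 recomputed values kept their side of the threshold, 101 were lost, 7 gained, 8 moved and 0 reversed.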
